A study of Mus musculus with 24 samples.

Results

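The comparison concerns liver RNA taken at zeitgeber time 6 (ZT6, 6 h after lights on, the middle of the rest phase of a mouse) from mice that had lost the clock gene Arntl (also called Bmal1) in hepatocytes and from mice that kept it. Its members are the 4 libraries labelled ZT6 among 24 in the series, 2 of HepKO and 2 of HepWT. HepKO mice carried 2 floxed Bmal1 alleles and 1 copy of a Cre recombinase transgene driven by the albumin promoter (Alb::Cre +/0), and HepWT mice carried the same floxed alleles without Cre (Alb::Cre 0/0). The mice, all C57BL/6 and 8 to 12 weeks old, were given food at night only, so ZT6 also fell within the daily fast. The other 20 libraries hold the same genotypes at ZT2, 10, 14, 18 and 22, with 2 libraries a group. Albumin-driven Cre deletes in hepatocytes, so other liver cells keep the gene and add their RNA to the tissue. The sources used here do not say if the 2 libraries of a group are 2 animals, so p values measure the spread between these samples, which may be technical. In bulk tissue, fewer cells of a type and less RNA per cell cannot be told apart.

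In the liver clock, the protein of Arntl pairs with CLOCK or NPAS2, binds E-box sequences, and drives the genes of its own repressors, the period (Per), cryptochrome (Cry) and REV-ERB (Nr1d) families. REV-ERB proteins in turn compete with ROR proteins at sites before Arntl, Npas2, Cry1 and other genes and hold them down during the day. Around midday the REV-ERB genes are near their peak in normal mouse liver and many of their targets are near their lowest level. At the same time the fasting liver oxidises fatty acids under the nuclear receptor PPARA.

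Total counts were 26175155 and 12997689 in the HepKO libraries and 28697496 and 26452325 in the HepWT libraries at ZT6. The second HepKO library is 1 of 5 HepKO replicate 2 libraries with 12997689 to 16910415 counts, against 23583035 to 30677807 in the other 19. Of 35304 genes in the table, 17275 were tested. Levels are CPM, counts relative to the library's total after TMM scaling, and a difference is the log2 of HepKO over HepWT with its standard error, from an edgeR quasi-likelihood model of all 24 libraries with 1 level per genotype and time. A gene was called where the Benjamini-Hochberg adjusted p over all tested genes was below 0.05. The 5 libraries of low depth belong to ZT6, 10, 14, 18 and 22. A fit without them leaves 1 HepKO library at each of these times. In a call lost there, low depth and fewer libraries cannot be told apart.

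The deleted gene was examined first. Arntl (ENSMUSG00000055116, chromosome 7 from 113207465 to 113314126 of GRCm38) had 13.8 and 12.7 CPM in the HepKO libraries, against 16.5 and 21.7 CPM in the HepWT libraries. The groups did not overlap, but the log2 difference of -0.52 ± 0.17 did not pass (adjusted p = 0.093). Counts cover the whole gene, exons outside the floxed part included, and other liver cells add to them. In HepWT, Arntl had 43.8 and 46.0 CPM at ZT2 and 1.27 and 1.40 CPM at ZT10. In HepKO it had 15.2 and 16.3 CPM at ZT2 and 11.9 and 10.3 CPM at ZT10. At ZT6 the level of Arntl separates the labels little, and why was not tested. Alb, whose promoter drives the Cre transgene, had 24610 and 18420 CPM in HepKO and 61511 and 57011 CPM in HepWT, with a log2 difference of -1.46 ± 0.22 (adjusted p = 0.000813). Without the 5 libraries of low depth, Alb had a log2 difference of -1.25 and was not called. Over all 6 times Alb lay between 18420 and 34519 CPM in the HepKO libraries. In the HepWT libraries it lay between 55916 and 82224 CPM, so Alb was lower in HepKO at every time and not at ZT6 alone.

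At ZT6, 857 of the 17275 genes differed between the genotypes, which is 4.96% of those tested. Higher in HepKO were 440 genes (2.55%) and lower were 417 (2.41%), of which 189 (1.09% of those tested) were at least 2-fold higher and 157 (0.909%) at least 2-fold lower. The HepKO and HepWT libraries did not overlap in any of the 857, beside 23.8% of all tested genes that were higher and 24.6% that were lower without overlap. Without the 5 libraries of low depth 137 genes were called, 133 of them among the 857, and without HepKO ZT6 replicate 1 or 2 the counts were 286 and 200. Without HepWT ZT6 replicate 1 or 2 they were 368 and 563. By the same rule 321 genes (1.86%) were called at ZT2, 1332 (7.71%) at ZT10, 1320 (7.64%) at ZT14, 654 (3.79%) at ZT18 and 233 (1.35%) at ZT22.

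The E-box is the sequence that the missing protein binds with its partner, so the promoters of 4 genes that differed at ZT6 and hold a perfect E-box are shown first. They are the 250 bases before the transcription start in RefSeq (build GRCm38.p6), 5′ to 3′ on the gene's strand, with the E-box CACGTG in capitals. Cry1, Per1 and Lonrf3 were higher in HepKO, and Bhlhe41 was lower, so the same 6 letters stand before genes that moved in either direction.
Cry1 (chr10:85185055-85185304, minus strand): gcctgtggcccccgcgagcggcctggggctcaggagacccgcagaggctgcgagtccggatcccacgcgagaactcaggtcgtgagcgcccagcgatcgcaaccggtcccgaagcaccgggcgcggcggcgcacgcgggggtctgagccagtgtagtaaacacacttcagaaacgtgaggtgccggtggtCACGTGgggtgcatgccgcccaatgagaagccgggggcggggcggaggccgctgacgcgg
Per1 (chr11:69098699-69098948, plus strand): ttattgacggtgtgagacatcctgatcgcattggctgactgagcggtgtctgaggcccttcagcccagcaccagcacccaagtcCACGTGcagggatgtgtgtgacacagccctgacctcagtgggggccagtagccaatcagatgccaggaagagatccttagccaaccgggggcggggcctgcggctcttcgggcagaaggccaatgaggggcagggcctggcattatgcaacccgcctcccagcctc
Lonrf3 (chrX:36328159-36328408, plus strand): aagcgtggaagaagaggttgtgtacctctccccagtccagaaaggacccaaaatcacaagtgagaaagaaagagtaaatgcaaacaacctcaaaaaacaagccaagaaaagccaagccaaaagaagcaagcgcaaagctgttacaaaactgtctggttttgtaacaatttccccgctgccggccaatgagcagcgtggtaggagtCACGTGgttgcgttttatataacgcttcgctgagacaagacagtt
Bhlhe41 (chr6:145865421-145865670, minus strand): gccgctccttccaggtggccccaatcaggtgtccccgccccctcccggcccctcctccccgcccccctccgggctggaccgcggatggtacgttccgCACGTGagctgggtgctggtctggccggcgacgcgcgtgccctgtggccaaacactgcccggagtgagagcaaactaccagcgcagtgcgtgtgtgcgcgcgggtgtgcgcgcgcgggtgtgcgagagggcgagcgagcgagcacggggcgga

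Of the 26 clock genes tested, 21 had a promoter in the table, with 26 promoters in all, and 7 of these promoters (26.9%) held CACGTG on either strand, against 6.02% of the 32851 promoters of all genes. The 6 genes were Bhlhe41, Ciart, Cry1, Klf15, Per1 and Tef. Among the 41 genes called at ZT6 whose difference also stood apart from the other times, 30 had a promoter in the table, and 3 of their 39 promoters (7.69%), those of Coq10b, Cry1 and Lonrf3, held CACGTG, a share near that of all promoters. The core of the site for ROR and REV-ERB proteins, TAGGTCA, was in 3.85% of the clock promoters and in 2.23% of all. The D-box TTATGNAA, bound by DBP and its relatives, was in 7.69% and in 3.07%. Both strands were searched, and none of the motifs contains another. A match describes the letters in this window and not a bound site.

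Among clock genes at ZT6, the activator Npas2 and the repressors Cry1, Per2 and Per1 were higher in HepKO, while the REV-ERB genes Nr1d1 and Nr1d2, the repressor Bhlhe41 and the output factor Dbp were lower. The 2 output genes Wee1 and Usp2 were higher as well. Of 6 activators tested, 2 rose and none fell, of 10 repressors 3 rose and 3 fell, and of 10 output factors 2 rose and 1 fell, beside 4.96% called among all genes. None of the 12 clock kinases and ubiquitin ligases passed, and the smallest adjusted p of that list was 0.17, for Btrc.

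Npas2, which can take the place of CLOCK as the partner of the missing protein, had 20.6 and 25.6 CPM in HepKO, against 1.65 and 1.91 CPM in HepWT. Both HepKO libraries were above both HepWT libraries, by log2 3.69 ± 0.27 (adjusted p = 5e-07). Clock itself had 123 and 141 CPM in HepKO, against 106 and 102 CPM in HepWT, and did not pass (log2 0.34, adjusted p = 0.111). Rora (log2 0.07) and Arntl2 (log2 0.02), a relative of the deleted gene, did not pass either.

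Cry1, which encodes a repressor of the activator pair, had the smallest p of all tested genes at ZT6. It lies on chromosome 10 from 85131700 to 85185064, with the E-box shown above. Its level was 66.6 and 61.7 CPM in HepKO and 6.08 and 5.45 CPM in HepWT (log2 3.47 ± 0.15, adjusted p = 7.24e-10). Per2 had 16.9 and 23.5 CPM in HepKO, against 5.22 and 6.03 CPM in HepWT (log2 1.83 ± 0.22, adjusted p = 0.000144). Per1 had 5.61 and 6.75 CPM in HepKO and 1.61 and 1.14 CPM in HepWT (log2 2.14 ± 0.49, adjusted p = 0.0188). The call of Per1 was lost without any 1 of the 4 ZT6 libraries and without the 5 libraries of low depth (log2 2.04, adjusted p = 0.138). Per3, Cry2, Bhlhe40 and Ciart did not pass, with log2 differences of -0.40, 0.52, 0.54 and -1.40.

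Nr1d1, the gene of REV-ERB alpha, had 6.42 and 6.60 CPM in HepKO, against 50.4 and 47.8 CPM in HepWT (log2 -2.92 ± 0.35, adjusted p = 0.000144). Nr1d2, the gene of REV-ERB beta, had 26.4 and 31.3 CPM in HepKO and 99.2 and 78.8 CPM in HepWT (log2 -1.63 ± 0.16, adjusted p = 2.5e-05). Both REV-ERB genes were still detected in both HepKO libraries. Dbp, a PAR bZIP factor that binds D-boxes, had 8.51 and 9.45 CPM in HepKO, against 39.1 and 24.9 CPM in HepWT (log2 -1.84 ± 0.20, adjusted p = 4.56e-05). Its relatives Tef and Hlf did not pass (log2 0.14 and 0.07). Bhlhe41 was near the limit of detection, at 0.147 and 0.525 CPM in HepKO and 1.29 and 1.11 CPM in HepWT, and its call (log2 -2.04, adjusted p = 0.0319) was lost without HepKO ZT6 replicate 1 or either HepWT ZT6 library, and without the 5 libraries of low depth (adjusted p = 0.0686). Nr1d1 overlaps Thra, and Dbp overlaps Sphk2, on the opposite strand, and the strand setting of the counting is unknown here, so their levels may include reads of those genes.

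**Figure D1:**
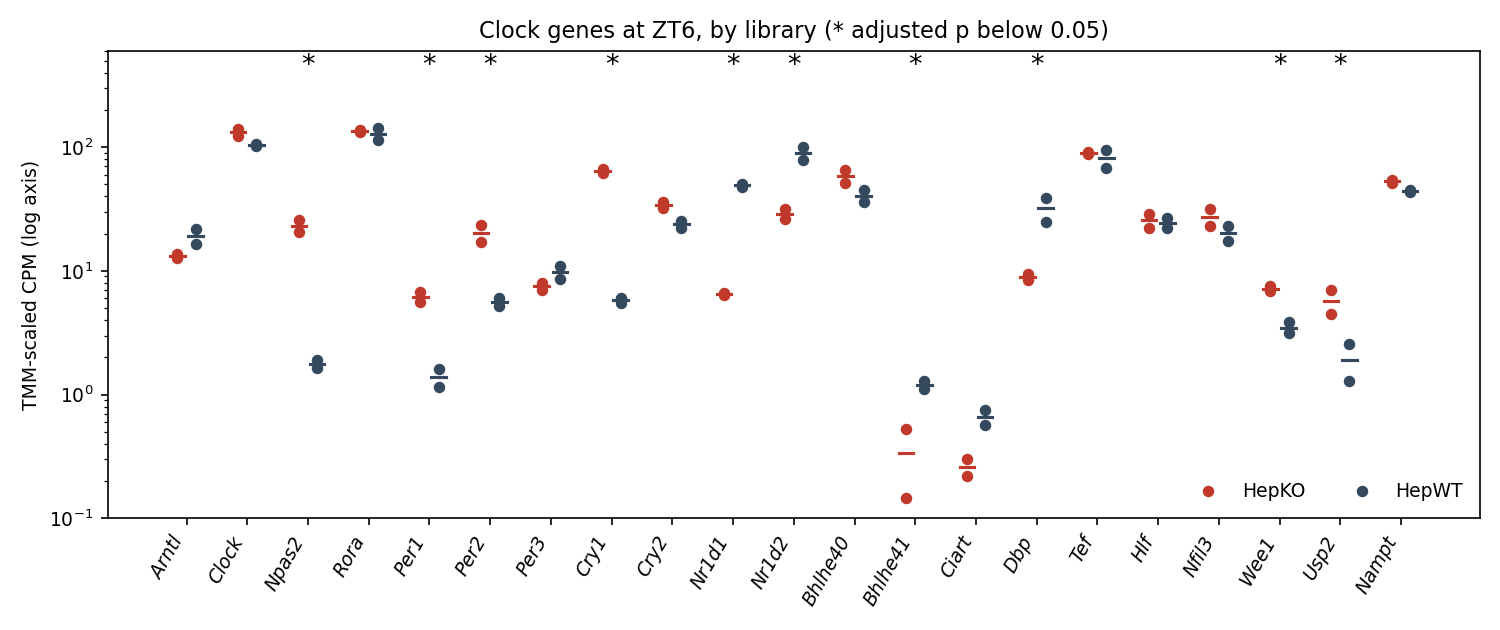
Levels of 21 clock genes at ZT6 (TMM-scaled CPM, log axis), HepKO left of HepWT in each pair; points are the 2 libraries of a group and bars their mean. Npas2, Per1, Per2 and Cry1 stand higher in HepKO, and Nr1d1, Nr1d2, Bhlhe41 and Dbp lower, while Arntl, Clock and Rora lie close together.

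To ask what set ZT6 apart, each gene's log2 difference at ZT6 was compared with the mean of its differences at the other 5 times, which share no library with it; the distance between them was tested in the same model. It passed in 57 genes (0.33% of those tested), 32 above and 25 below the other times. Of these, 41 were also called at ZT6 itself (0.237%). In 24 (0.139%) the gene was higher at ZT6 and above the other times, in 12 (0.0695%) it was lower and below them, and in 5 (0.0289%) it was higher at ZT6 but by less than at the other times. Of the 41, 16 (0.0926% of those tested) were not called over the other 5 times together, and 13 (0.0753%) were called there with the opposite sign. Most calls at ZT6 were thus not shown to be particular to that hour: of the 857 genes, 646 were also called over the other 5 times with the same sign, 590 had the same sign at all 6 times, and 14 were called with opposite signs. The ZT6 difference was the largest of the 6 in 453 of the 857, which were chosen for their values at ZT6. Without the 5 libraries of low depth 5 genes passed the test of the distance, and without HepKO ZT6 replicate 1 or 2 or HepWT ZT6 replicate 1, the counts were 16, 7 and 11. Set against the neighbouring times ZT2 and ZT10 alone, 7 genes (0.0405%) passed, namely Cry1, Nampt, Wee1, Coq10b, Stim2 and, with a negative distance, Clpx and Arntl.

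**Figure D2:**
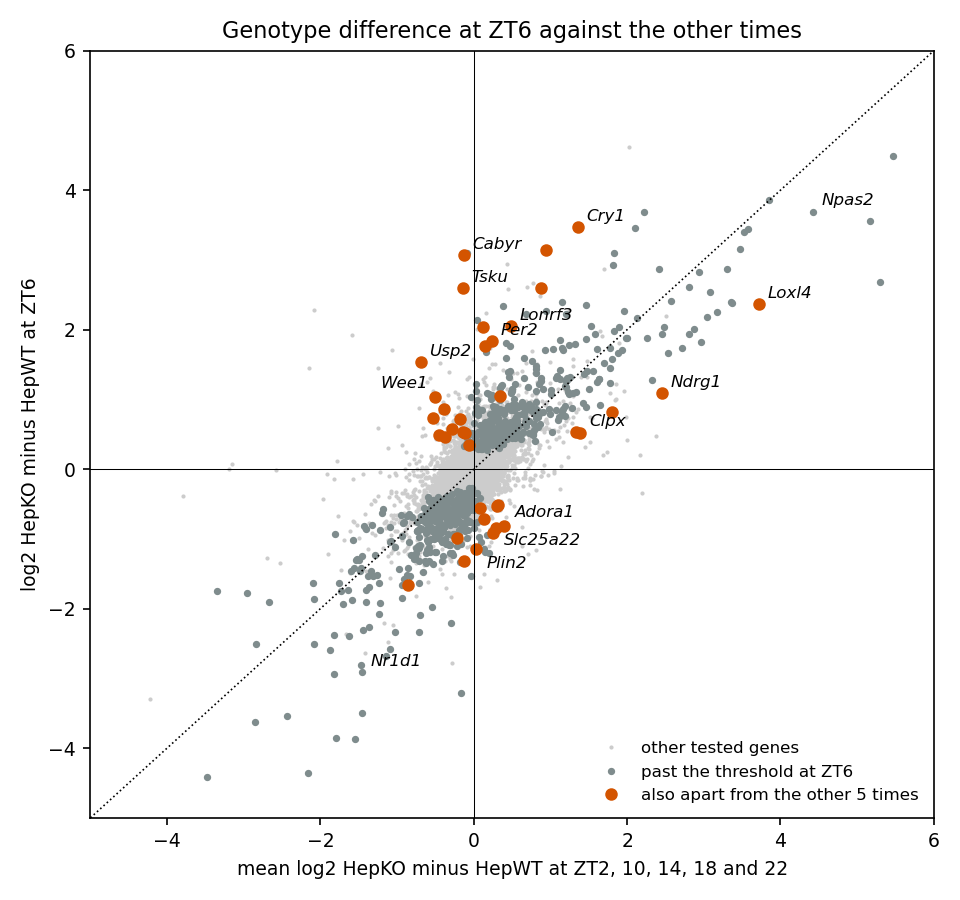
Each point is 1 of 11454 genes of at least 2 CPM at ZT6, with the log2 difference HepKO minus HepWT at ZT6 on the vertical axis and the mean of the other 5 times on the horizontal axis; 8 genes lie outside the axes, and the dotted line marks equal differences. The 37 genes drawn largest, Cry1, Tsku, Cabyr and Plin2 among them, passed both tests; Npas2 and Nr1d1 passed at ZT6 but not in the distance.

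Cry1 had the distance of smallest p, 2.12 ± 0.16 (adjusted p = 3.75e-06). In HepKO it was nearly level over the day, with group means between 56.2 and 65.1 CPM. In HepWT its means at ZT2, 6, 10, 14, 18 and 22 were 17.1, 5.77, 9.57, 21.5, 43.6 and 51.4 CPM. It was lowest at ZT6 in HepWT, and its log2 difference at ZT22 was 0.34.

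The clock outputs Wee1, a kinase that delays mitosis, and Usp2, a ubiquitin-specific protease, changed direction over the day. Wee1 had 6.82 and 7.57 CPM in HepKO, against 3.83 and 3.13 CPM in HepWT, with a log2 difference of 1.04 ± 0.19 at ZT6, -1.87 at ZT10 and a distance of 1.55 ± 0.21 (adjusted p = 0.00284). Usp2 had 4.51 and 6.97 CPM in HepKO and 2.54 and 1.30 CPM in HepWT, with a log2 difference of 1.53 ± 0.29 at ZT6 and -2.36 at ZT10 (distance 2.22, adjusted p = 0.00435). Per2 had a difference of 1.83 at ZT6 and a mean of 0.24 over the other times (distance 1.59, adjusted p = 0.0065), and its negative differences at ZT10, 14 and 18 (-0.44, -0.27 and -0.44) did not pass. The differences of Per2 and Wee1 at ZT2, 2.13 and 1.07 (log2), were not smaller than those at ZT6. Usp2 was called higher at ZT2 as well (log2 1.34). Set against ZT2 and ZT10 alone, the distances of Usp2 and Per2 were 2.04 and 0.98 and did not pass (adjusted p = 0.0501 and 0.399, edgeR). Usp2 was not called at ZT6 with the 4 ZT6 libraries alone. With 1 library left out, its log2 difference at ZT6 lay between 1.14 and 2.09, and that of Wee1 between 0.9 and 1.18. The distances then lay between 1.83 and 2.78 for Usp2, 1.41 and 1.68 for Wee1, and 1.34 and 1.8 for Per2. Nampt, which makes the NAD precursor nicotinamide mononucleotide, did not pass at ZT6 (54.6 and 50.9 CPM in HepKO, against 43.6 and 45.2 CPM in HepWT, log2 0.25, adjusted p = 0.216). At ZT14 its means were 64.5 CPM in HepKO and 230 CPM in HepWT, and its distance of 1.14 ± 0.12 passed (adjusted p = 0.000176).

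Genes outside the clock lists were also higher at ZT6 by more than the mean of the other times, some of them at neighbouring times too. Tsku, a secreted protein of the liver, had 48.2 and 120 CPM in HepKO, against 8.16 and 19.5 CPM in HepWT (log2 2.60, distance 2.74, adjusted p = 0.0205). The libraries of each genotype differed from each other by over 2-fold, yet the groups did not overlap. Lonrf3, a RING finger gene on the X chromosome with the E-box shown above, had 12.3 and 13.5 CPM in HepKO and 2.43 and 3.78 CPM in HepWT (distance 1.56, adjusted p = 0.029). Lingo4 had 6.01 and 3.97 CPM in HepKO, against 0.751 and 0.381 CPM in HepWT (distance 2.20, adjusted p = 0.012), and Resf1, a regulator of silenced repeats in embryonic stem cells, 61.4 and 91.2 CPM in HepKO, against 25.9 and 19 CPM in HepWT (distance 1.61, adjusted p = 0.021). Lonrf3 was also called higher at ZT10 (log2 1.81, beside 2.05 at ZT6), Lingo4 at ZT2 and ZT10 (log2 1.90 and 1.62, beside 3.14 at ZT6) and Resf1 at ZT2 (log2 1.20, beside 1.76 at ZT6). Lingo4 overlaps an annotated transcript on the opposite strand, so its counts may include reads of it. Cabyr, a calcium-binding protein of the sperm tail, had 17.2 and 11.5 CPM in HepKO and 1.40 and 2.06 CPM in HepWT (log2 3.07 ± 0.55, distance 3.19, adjusted p = 0.0273). Unlike Cry1, Cabyr was at its highest at ZT6 in HepKO itself, with means of 1.79 to 7.96 CPM at the other times. The distance of Cabyr did not pass without any 1 of the 4 ZT6 libraries (adjusted p up to 0.236) or without the 5 libraries of low depth (adjusted p = 0.402). Those of Tsku, Lonrf3, Lingo4 and Resf1 did not pass without the 5 libraries of low depth either (adjusted p = 0.545, 0.545, 0.137 and 0.653).

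Lower at ZT6 by more than the mean of the other times were Plin2, which coats lipid droplets, the mitochondrial glutamate carrier Slc25a22, the adenosine receptor Adora1, Mrnip, Casp6 and the coagulation factor F11. Plin2 had 264 and 223 CPM in HepKO, against 549 and 531 CPM in HepWT (log2 -1.15 ± 0.20, distance -1.18, adjusted p = 0.0279). Its mean level in HepWT was highest at ZT6, and the log2 differences at the other 5 times lay between -0.21 and 0.29, none of them called. Slc25a22 had 57.6 and 54.7 CPM in HepKO and 111 and 101 CPM in HepWT (log2 -0.91, distance -1.17, adjusted p = 0.012), and Adora1 had 16.5 and 18.7 CPM in HepKO, against 37.3 and 24.3 CPM in HepWT (log2 -0.81, distance -1.21, adjusted p = 0.0299). Mrnip, which acts in DNA repair, Casp6, an executioner caspase, and F11 had log2 differences of -1.32, -0.84 and -0.71 and distances of -1.19, -1.13 and -0.84. Adora1 was also called lower at ZT10 (log2 -0.71) and Mrnip at ZT2 (log2 -1.06). Mrnip overlaps Sqstm1 on the opposite strand. In HepWT these genes other than Adora1 were highest at ZT6, while Adora1 was highest at ZT10. Set against ZT2 and ZT10 alone, the distance of none of these genes passed, and that of Plin2 was -1.02 (adjusted p = 0.291, edgeR). Those of Plin2, Casp6 and F11 also did not pass by an F test of the whole interaction. That of Mrnip did not pass with limma-voom. With 1 library left out, the distance lay between -1.32 and -1.07 for Plin2 and between -1.48 and -0.88 for Adora1. That of Plin2 was lost without any 1 of the 4 ZT6 libraries. That of Adora1 was lost without either HepKO ZT6 library or HepWT ZT6 replicate 1. Without the 5 libraries of low depth the distances of Plin2, Slc25a22 and Adora1 were -1.12, -1.15 and -1.17. Those of Mrnip, Casp6 and F11 were -1.22, -1.01 and -0.78. These distances did not pass in that fit.

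In another 5 genes HepKO was higher at ZT6 but by less than the mean of the other 5 times. They were Clpx, a mitochondrial chaperone that acts on heme synthesis, Insig2, a brake on sterol synthesis, Ndrg1, Loxl4 and Dtx4. Clpx had 404 and 390 CPM in HepKO, against 264 and 288 CPM in HepWT, a log2 difference of 0.52 ± 0.10, set against a mean of 1.39 at the other times (distance -0.87, adjusted p = 0.00177). Loxl4, a lysyl oxidase, had 35.5 and 35.3 CPM in HepKO and 6.4 and 7.32 CPM in HepWT, a log2 difference of 2.37 set against 3.73 elsewhere (distance -1.36, adjusted p = 0.0151). Insig2, Ndrg1 and Dtx4 had log2 differences of 0.53, 1.09 and 0.81 at ZT6, and 1.34, 2.45 and 1.80 elsewhere. Not every other time was above ZT6. At ZT2 and ZT22 the log2 differences of Clpx (0.23 and 0.23) and Insig2 (0.25 and 0.37) were below those at ZT6 and not called. Those of Loxl4 at ZT2 (1.82) and Dtx4 at ZT22 (0.78) were also below their ZT6 values, and were called. Without the 5 libraries of low depth the distances of Clpx, Ndrg1 and Dtx4 were -0.83, -1.46 and -0.93 and did not pass, while that of Loxl4 passed. The distances of Ndrg1 and Loxl4 were lost without any 1 of the 4 ZT6 libraries, and that of Loxl4 also with limma-voom. That of Clpx was kept without each of the 24 libraries in turn.

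The genes that passed both tests were then described by their means over the day. Of the 24 that were higher and above other times, 22 had their lowest HepWT mean of the day at ZT6, the exceptions being Per2 and Usp2 with theirs at ZT2. Of the 12 that were lower and below, 10 had their highest HepWT mean at ZT6. In the 5 that were higher at ZT6 but below the other times, neither the highest nor the lowest HepWT mean fell at ZT6. In HepKO the 24 genes had their highest mean at ZT6 in 13 cases and their lowest in 3. Over the 37 of these genes with at least 2 CPM, the ratio of the highest to the lowest group mean over the day had a median of 1.57 in HepKO and 3.53 in HepWT, and was smaller in HepKO in 34. Over all 11454 genes of that level the medians were 1.33 in HepKO and 1.39 in HepWT. Over the 761 of them called at ZT6 they were 1.44 in HepKO and 1.72 in HepWT. The genes past both tests were chosen on the ZT6 values, which favours extreme means at that hour. The counts thus describe these genes and are not tested.

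**Figure D3:**
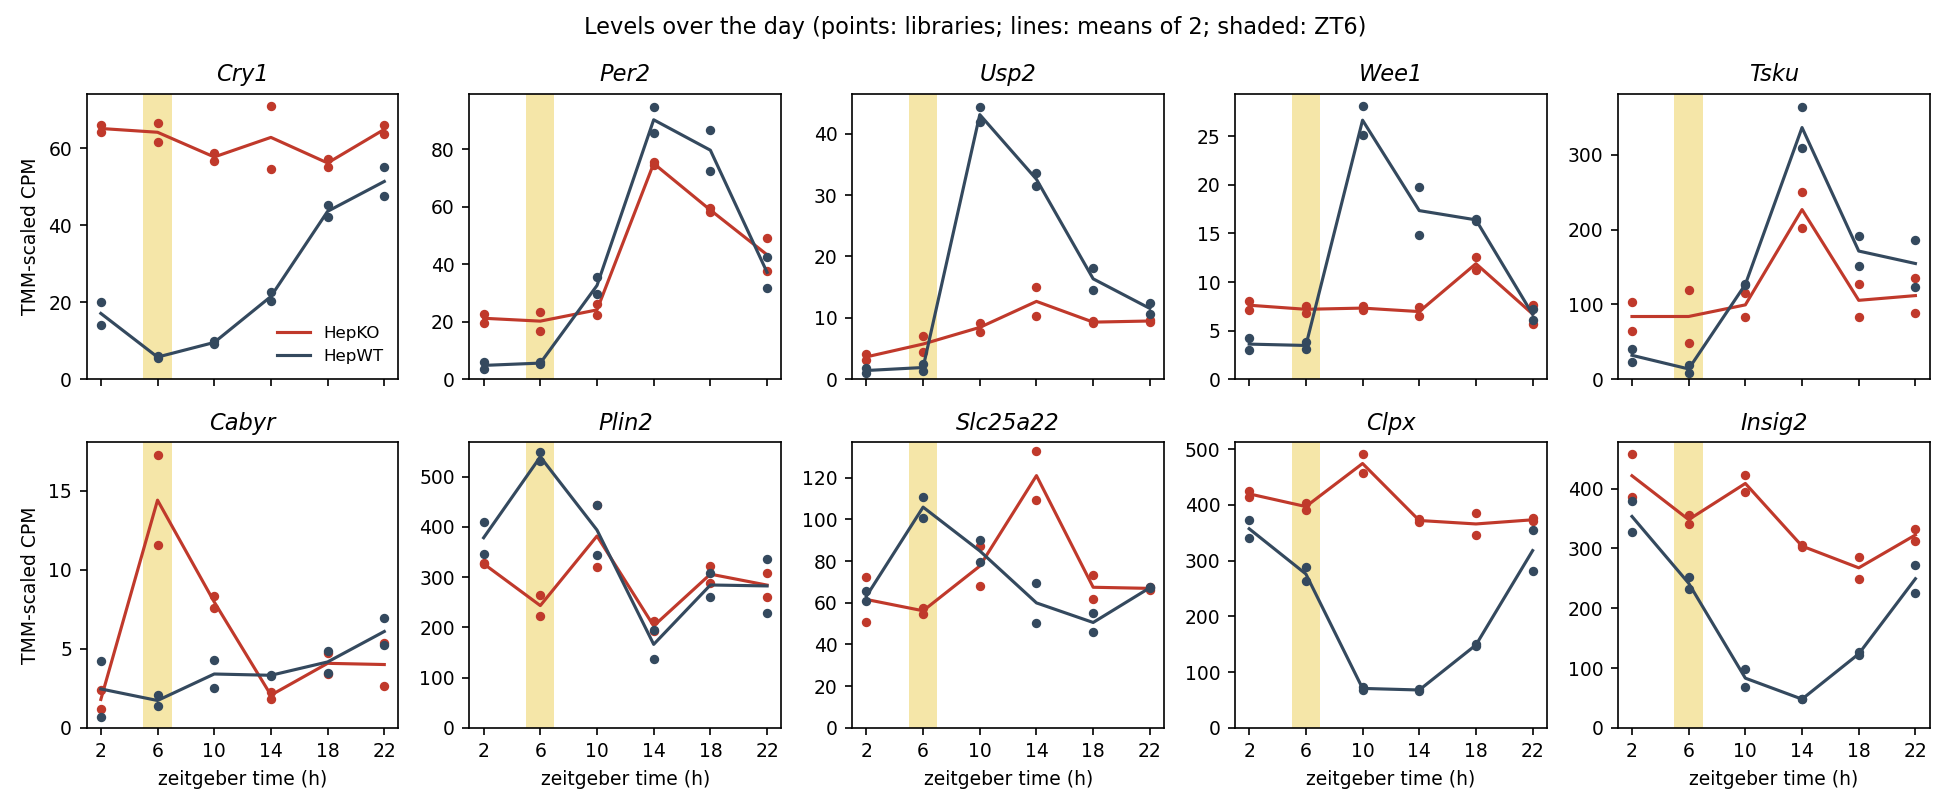
Levels of 10 genes that passed both tests over the 6 times (TMM-scaled CPM, linear axes from 0; points are libraries, lines group means, ZT6 shaded), HepKO and HepWT in separate colours. Cry1 is nearly level in HepKO and lowest at ZT6 in HepWT, Plin2 is highest at ZT6 in HepWT, and Cabyr peaks at ZT6 in HepKO.

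Of the lipid lists, the called genes of fatty acid oxidation were lower in HepKO and those of cholesterol synthesis higher. Of 36 genes of fatty acid oxidation and ketogenesis, 9 fell and none rose, a share of 25.0% beside 2.41% lower among all genes, and the median log2 difference was -0.56, beside -0.00142 over all tested genes. Over the other 5 times the median of this list was -0.32, and 1 member, Plin2, was set apart at ZT6 by the test of the distance. Cpt1a, the entry step of fatty acids into mitochondria, had 234 and 223 CPM in HepKO, against 459 and 467 CPM in HepWT (log2 -1.02 ± 0.13, adjusted p = 0.000174). The peroxisomal thiolase Acaa1a had 67.4 and 66.9 CPM in HepKO and 126 and 122 CPM in HepWT (log2 -0.88 ± 0.11, adjusted p = 0.00019). Creb3l3, a membrane-bound transcription factor of the fasting liver, had 178 and 150 CPM in HepKO, against 283 and 290 CPM in HepWT (log2 -0.81 ± 0.11, adjusted p = 0.000292). In each of these 3 genes the groups were apart by more than the libraries of a group. The carnitine enzymes Cpt2 (log2 -0.45) and Slc25a20 (log2 -0.57) fell by less. The fasting hormone gene Fgf21 had 0.11 and 0.075 CPM in HepKO and 0.894 and 3.24 CPM in HepWT, from 3 and 1 counts against 25 and 85. Acaa1a overlaps other genes on the opposite strand. Without the 5 libraries of low depth 3 of these 9 were called, Cpt1a, Acaa1a and Creb3l3.

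Among 25 nuclear receptors and coregulators, Ppard rose and Ppara and Ppargc1b fell (12.0%, beside 4.96% of all genes). No gene of this list was set apart at ZT6 by the test of the distance. The median log2 difference of the list was -0.12 at ZT6 and -0.12 over the other 5 times. Ppara, the receptor that drives fatty acid oxidation in fasting, had 79.0 and 81.0 CPM in HepKO, against 158 and 184 CPM in HepWT (log2 -1.10 ± 0.19, adjusted p = 0.00331). Its relative Ppard had 11.3 and 14.9 CPM in HepKO and 2.61 and 2.94 CPM in HepWT (log2 2.23 ± 0.21, adjusted p = 1.2e-05). The coactivator gene Ppargc1b had 3.67 and 3.60 CPM in HepKO, against 9.94 and 8.16 CPM in HepWT (log2 -1.32, adjusted p = 0.0028). The differences of Ppara and Ppard had opposite signs, and without the 5 libraries of low depth Ppard remained called (adjusted p = 0.00183) and Ppara did not (adjusted p = 0.0733).

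Cholesterol synthesis and uptake had 26 tested genes, of which 7 rose and none fell, a share of 26.9% beside 2.55% higher among all genes, with a median log2 difference of 0.59. Fdps, which makes farnesyl diphosphate, had 24.8 and 17.5 CPM in HepKO, against 7.01 and 10.3 CPM in HepWT (log2 1.30 ± 0.19, adjusted p = 0.000763). Lss, the cyclase that forms lanosterol, had 160 and 128 CPM in HepKO and 47.0 and 67.6 CPM in HepWT (log2 1.33 ± 0.24, adjusted p = 0.00408). Idi1, Cyp51, Nsdhl and Insig2 rose with log2 differences of 1.10, 1.08, 1.14 and 0.53. In all of these the first HepWT library was lower than the second. The median of this list over the other 5 times was 0.84, and Insig2 was the only member set apart at ZT6, from below. Without the 5 libraries of low depth 3 members were called and the median was 0.77.

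Fatty acid and triglyceride synthesis had 26 tested genes, of which 2 rose and none fell (7.69%, near the 4.96% of all genes), with a median log2 difference of -0.12. The elongase Elovl3 had 912 and 759 CPM in HepKO, against 219 and 198 CPM in HepWT (log2 2.00 ± 0.39, adjusted p = 0.00673). The desaturase Scd2 had 33.3 and 37.0 CPM in HepKO and 13.8 and 7.21 CPM in HepWT (log2 1.74, adjusted p = 0.00927). Scd2 was called without the 5 libraries of low depth and Elovl3 was not (adjusted p = 0.114), and Elovl3 was also lost without HepKO ZT6 replicate 1 or either HepWT ZT6 library. Thrsp, a factor that promotes lipid synthesis, did not pass at ZT6 (log2 0.59) but was lower in HepKO over the other 5 times (log2 -1.25), a distance of 1.84 (adjusted p = 0.0301). The summed level of this list was 10170 and 7850 CPM in HepKO and 19680 and 7852 CPM in HepWT, so the HepWT libraries of ZT6 differed from each other by more than the genotypes did.

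**Figure D4:**
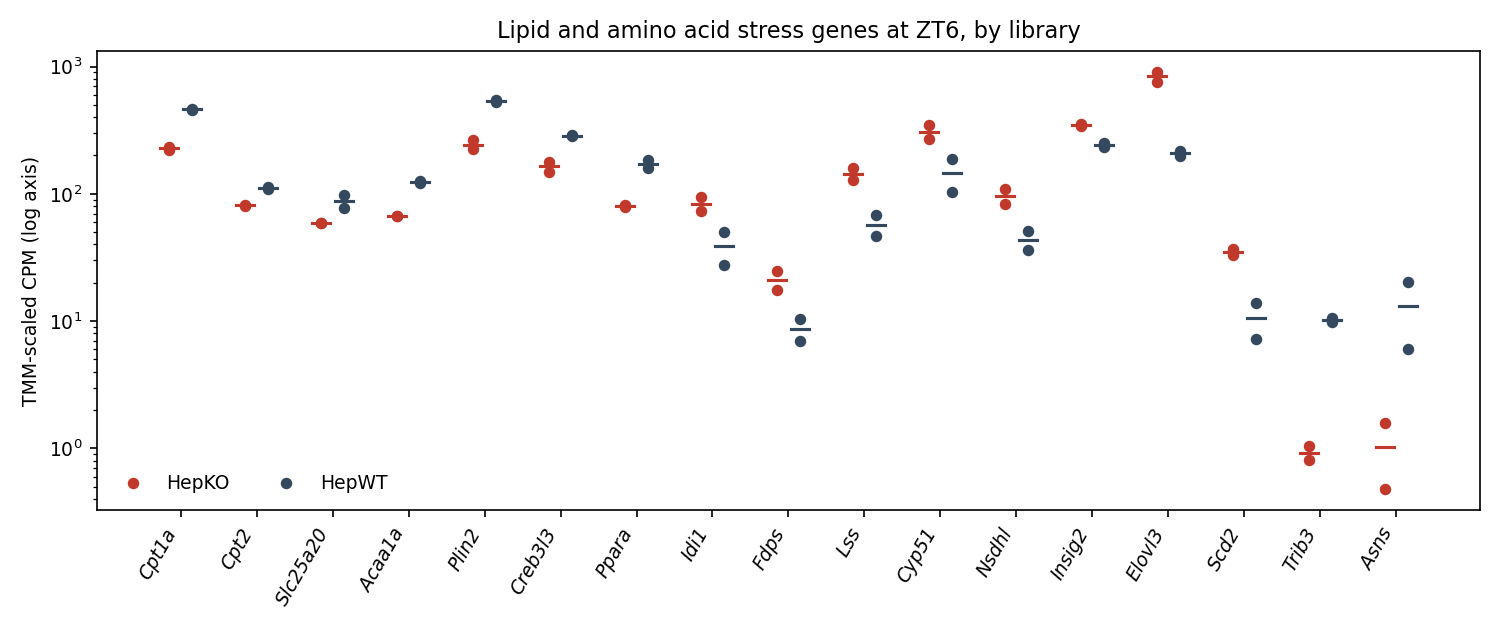
Levels of 17 genes at ZT6 (TMM-scaled CPM, log axis), HepKO left of HepWT in each pair, with the 2 libraries as points and their mean as a bar. Genes of fatty acid oxidation from Cpt1a to Creb3l3 and Ppara stand lower in HepKO, the cholesterol genes from Idi1 to Insig2, Elovl3 and Scd2 higher, and Trib3 and Asns lower.

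Genes of xenobiotic metabolism were called in both directions. Of 38 genes of conjugation and glutathione, 9 rose and 4 fell (34.2% called, beside 4.96% among all genes), and of 30 cytochrome P450 genes and partners 4 rose and 2 fell. Gstm2, a glutathione transferase, had 234 and 190 CPM in HepKO, against 46.8 and 33.1 CPM in HepWT (log2 2.41 ± 0.19, adjusted p = 1.12e-06). Gstm6, Gstm3 and Gstm1 rose, with log2 differences of 1.67, 2.61 and 1.33, and all 4 Gstm calls held without each of the 24 libraries in turn. The sulfotransferase Sult1a1, which acts on phenols, fell (log2 -1.53, adjusted p = 0.000834), as did the esterases Ces1d and Ces1e (log2 -0.94 and -1.52). Cyp2c55 had 165 and 120 CPM in HepKO and 15 and 11.3 CPM in HepWT (log2 3.44 ± 0.33, adjusted p = 1.72e-05), and Cyp2c37 and Cyp2c29 rose by log2 1.70 and 1.18. Members of the Gstm, Cyp2c, Ugt and Ces1 families share sequence, so the split of reads among relatives is uncertain. No gene of these 2 lists was set apart at ZT6 by the test of the distance. Without the 5 libraries of low depth 6 genes of conjugation and 2 of the P450 list were called.

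In heme synthesis the rate of the pathway is set early, and its first enzyme differed at this hour. Alas1, the rate-limiting enzyme in liver (chromosome 9 from 106233455 to 106248654), had 342 and 311 CPM in HepKO, against 37.3 and 38.5 CPM in HepWT (log2 3.11 ± 0.67, adjusted p = 0.0129). In HepWT its means at ZT2, 6, 10 and 14 were 122, 37.9, 834 and 1969 CPM, with the lowest mean of the day at ZT6. In HepKO these means were 189, 326, 573 and 734 CPM. Alas1 also varied between the libraries of a group, with 193 and 51.6 CPM in HepWT at ZT2. It had 1154 and 314 CPM in HepKO at ZT14. Its distance from the other times was 3.19 ± 0.71 and did not pass (adjusted p = 0.0772), and the call at ZT6 was lost without any 1 of the 4 ZT6 libraries and without the 5 of low depth (adjusted p = 0.0838). Of 14 genes of heme synthesis and breakdown, Alas1 and Clpx rose and Cpox (log2 -0.47) fell (21.4%, beside 4.96% of all genes). The log2 difference of Cpox lay between -0.66 and -0.27 with 1 library left out. Cpox was not called with the 4 ZT6 libraries alone.

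Of the carbohydrate and amino acid lists, 0% to 12.0% of the genes were called, beside 4.96% of all genes. Of 25 genes of glycolysis and glycogen, the glycogen synthase Gys2 fell (89.1 and 78.5 CPM in HepKO, against 162 and 129 CPM in HepWT, log2 -0.80, adjusted p = 0.0066). The glycogen-targeting subunit Ppp1r3b (log2 1.32) and Ugp2 (log2 0.51), which makes UDP-glucose, rose. None of 17 genes of gluconeogenesis and the FOXO response passed, and Foxo3 had the smallest adjusted p, 0.0735. Of 27 genes of the urea cycle and amino acid breakdown, Oat (log2 1.25) and Glud1 (log2 0.41) rose and Hal (log2 -0.66) fell. The call of Glud1 was lost in 19 and that of Hal in 15 of the 24 fits that left out 1 library, and without the 5 libraries of low depth edgeR called none of the genes of these 3 lists or of the heme list. Agxt, a peroxisomal aminotransferase, did not pass at ZT6 (log2 -0.03), but was higher in HepKO over the other 5 times (log2 1.05, distance -1.08, adjusted p = 0.0102).

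Trib3 and Asns, targets of the amino acid stress factor ATF4, were the 2 of 27 genes of endoplasmic reticulum folding and stress that passed, and both fell (7.41%, near the 4.96% of all genes). Trib3 had 0.807 and 1.05 CPM in HepKO, against 10.6 and 9.84 CPM in HepWT (log2 -3.50 ± 0.59, adjusted p = 0.00233). Asns, asparagine synthetase, had 0.477 and 1.57 CPM in HepKO and 20.3 and 6.07 CPM in HepWT (log2 -3.86, adjusted p = 0.0462), a call lost in 17 of the 24 fits that left out 1 library. The folding chaperones of the list did not pass, and the list median was -0.01. Of 26 autophagy and lysosome genes, Ulk1, Sqstm1 and Map1lc3b fell (log2 -0.78, -0.51 and -0.41). Iron genes Hamp2 and Trf fell (log2 -3.87 and -0.59) and Hfe rose (log2 0.37), 3 of 19 tested. The shares of the autophagy and iron lists were 11.5% and 15.8%, Hfe lost its call in 13 of the 24 fits that left out 1 library, and no gene of these 2 lists was called by edgeR without the 5 libraries of low depth. Hamp2 shares sequence with Hamp.

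Bile acid genes gave 1 rise, of the receptor Fgfr4 (log2 0.38), and 2 falls, of its coreceptor Klb (log2 -1.003, adjusted p = 0.00103) and Amacr (log2 -0.34), among 24 tested. Among 16 genes of the glucocorticoid response Per1, Zbtb16 (log2 1.39) and Cdkn1a (log2 2.04) rose, and of 28 cell cycle genes Cdkn1a and Wee1, both inhibitors of the cycle, rose and none fell. Of 20 heat shock genes 1 rose (Hspa1a, lost in 19 of the 24 fits that left out 1 library), of 30 ribosome biogenesis genes 1 rose (Npm1), of 42 oxidative phosphorylation genes 1 fell (Cox5b), of 26 acute phase genes 2 fell (Serpina3m and Il1rn), and of 28 sex-biased genes 1 rose (Elovl3) and 2 fell (Cyp17a1 and Serpina1e). None of 18 splicing and cold-inducible genes or 25 immediate early genes passed. The shares of these last lists, other than glucocorticoid response (18.8%), bile acid (12.5%) and sex-biased genes (10.7%), lay between 0% and 7.69%, near the 4.96% of all genes. In the fit without the 5 libraries of low depth edgeR called no gene of the lists named here.

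**Figure D5:**
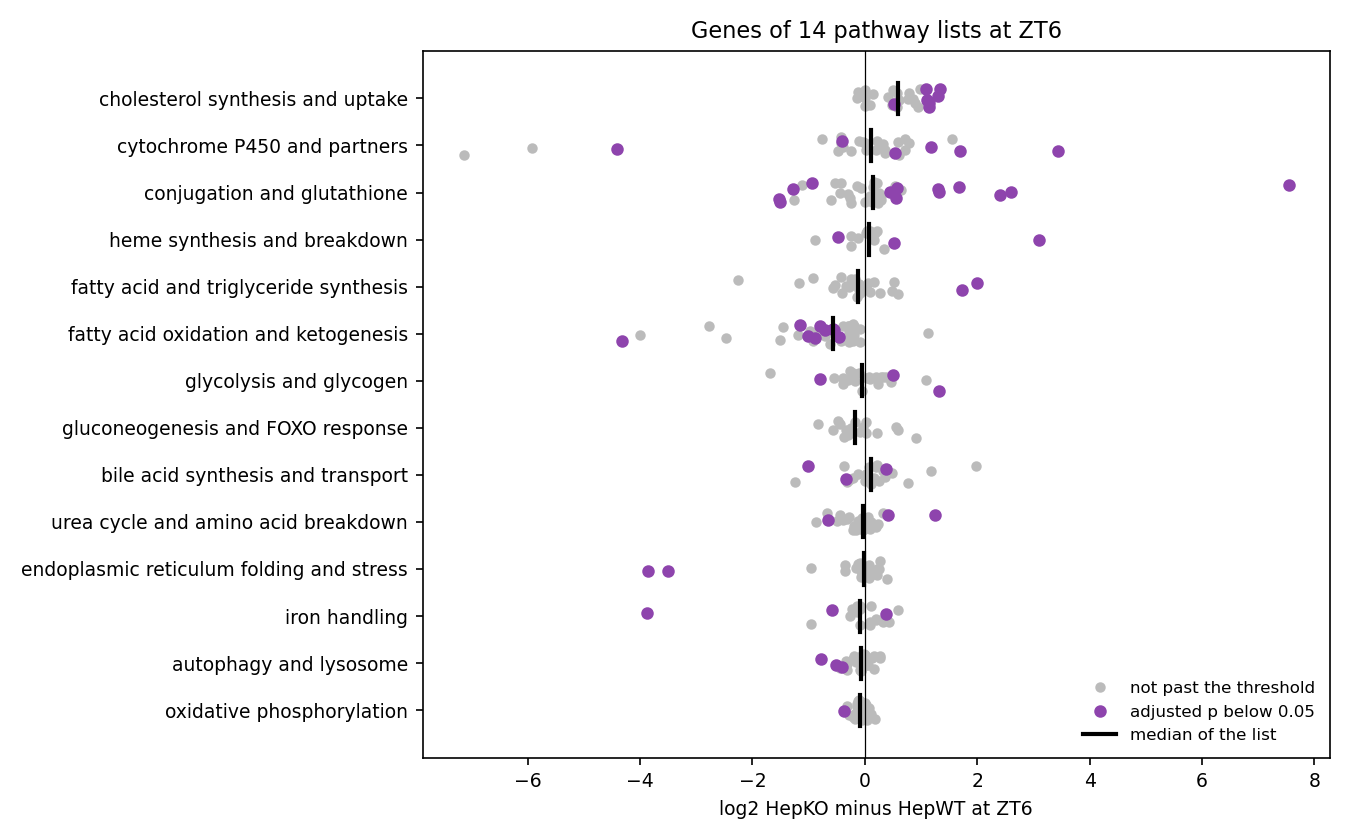
Log2 difference HepKO minus HepWT at ZT6 for every tested gene of 14 pathway lists, with called genes in colour and the list median as a bar. Calls of fatty acid oxidation lie below 0 and those of cholesterol synthesis above 0, while conjugation and P450 genes have calls on both sides.

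Some of the widest differences at ZT6 were in genes close to absent from 1 genotype. Moxd1, a copper monooxygenase, had 174 and 373 CPM in HepKO, against 0.322 and 0.0381 CPM in HepWT (log2 10.49, adjusted p = 0.000729). The oestrogen sulfotransferase Sult1e1 had 11.2 and 39.7 CPM in HepKO and 0.0358 and 0.229 CPM in HepWT. Ntrk2, a neurotrophin receptor, had 46.8 and 36.5 CPM in HepKO, against 2.90 and 0.763 CPM in HepWT (log2 4.5 ± 0.66, adjusted p = 0.00082). The phosphate transporter Slc34a2 (log2 3.86) and the engulfment adaptor Gulp1 (log2 3.69) were also among the 10 largest rises, as were Npas2 and Cry1. None of Moxd1, Sult1e1, Ntrk2, Slc34a2 and Gulp1 had a distance from the other times that passed. With limma-voom, Ntrk2 and Slc34a2 were called at ZT6, and Moxd1, Sult1e1 and Gulp1 were not. With 1 library left out, the log2 difference lay between 6.38 and 9.26 for Sult1e1 and between 3.43 and 4.01 for Gulp1. The call of Gulp1 was lost without any 1 of the 4 ZT6 libraries. That of Sult1e1 was lost without HepKO ZT6 replicate 2 or either HepWT ZT6 library. Both calls were also lost with either HepWT replicate alone. The calls of Moxd1, Ntrk2 and Slc34a2 were kept without each of the 24 libraries in turn.

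Rgs16, which shortens G protein signals, had 1 count over both HepKO libraries and 406 over both HepWT libraries. The ratio of HepWT over HepKO was 304, with an exact 95% counting interval of 54.3 to 12000. This interval covers counting error only, and the HepWT libraries of ZT6 differed by 50.8 times the counting variance. The log2 difference of Rgs16 was -7.99 and lay between -10.53 and -7.5 with 1 library left out. Its call was lost without HepKO ZT6 replicate 1 or 2, with limma-voom, and without the 5 libraries of low depth. Rgs16 overlaps Gm28513 on the opposite strand. The trefoil peptide Tff3 had 0.44 and 0.30 CPM in HepKO, against 25.7 and 5.80 CPM in HepWT, and the steroid hydroxylase Cyp17a1 0.367 and 0.375 CPM in HepKO, against 13.9 and 1.98 CPM in HepWT. The peroxisomal fatty acid transporter Abcd2 had 2.57 and 2.1 CPM in HepKO and 69.6 and 27.8 CPM in HepWT (log2 -4.35, adjusted p = 0.0168). Slc16a5, Nipal1 and Esm1 fell, with log2 differences of -3.62, -3.54 and -3.21. In Tff3, Cyp17a1, Abcd2, Slc16a5, Nipal1 and Esm1 the first HepWT library was at least 2-fold above the second, and all 6 calls were lost without it. Nipal1 lost its call in 17 of the 24 fits that left out 1 library. None of the 10 largest falls had a distance from the other times that passed.

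Markers of cell types were checked beside these results. Of 12 hepatocyte genes Alb, Apoa1 and Trf fell and none rose, with summed levels of 84270 and 80430 CPM in HepKO and 127400 and 124900 CPM in HepWT, a gap made mostly by Alb. The hepatocyte median was -0.01. Of 15 Kupffer cell and macrophage genes Cd163 rose (summed levels 622 and 750 CPM in HepKO, against 666 and 726 CPM in HepWT), and of 14 endothelial genes Lyve1 fell (948.5 and 900.5 CPM in HepKO, 1002 and 929 CPM in HepWT). None of 15 stellate cell genes passed (638 and 673 CPM in HepKO, 715 and 855 CPM in HepWT). Of 7 cholangiocyte genes tested Spp1 rose, with summed levels of 109 and 172 CPM in HepKO, against 38.5 and 72.0 CPM in HepWT, while Cftr, Cldn7 and Sctr had too few counts to be tested. Summed T and NK cell genes stayed below 6 CPM and neutrophil genes below 2 CPM in each of the 4 libraries. Of exocrine pancreas genes Cela1 rose (40.0 and 37.9 CPM in HepKO, 9.37 and 17.9 CPM in HepWT) while Cela2a did not pass (log2 -0.29) and the other 11 genes listed, such as Cpa1 and Prss2, had too few counts to be tested. None of the 9 B and plasma cell, 7 erythroid or 8 adipocyte genes tested passed. The share called was 25.0% of the hepatocyte and 14.3% of the cholangiocyte genes tested, beside 4.96% of all genes. It was 7.14% of the endothelial and 6.67% of the macrophage genes, near that of all genes, and rested on 1 gene in each list. The cholangiocyte share also rested on 1 gene. Only 2 exocrine pancreas genes were tested, too few for a share to be compared. The part of cell content in the gene differences was not tested.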

How the data were processed

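Liver RNA of 24 samples was sequenced after ribosomal RNA depletion with a stranded kit, per the labels' protocols. The authors deposited raw, not normalized counts, as a whole number for each gene in each library. STAR 2.4.0i and mm10 are named in the submitters' processing notes. The sources used here do not give the counting tool, its strand setting or the annotation. Of 170 named genes with a position in GENCODE M21 (GRCm38), 60 overlap an annotated gene on the opposite strand, so their counts may include its reads. The 5 HepKO replicate 2 libraries of low depth have column names with a suffix of unstated meaning, and were matched by the rest of the name.

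The model of the counts was an edgeR 4.0.16 quasi-likelihood fit (R 4.3.3), after TMM scaling and a filter by group (minimum count 10, minimum total 15). The model had 1 level for each of 12 groups and 12 residual degrees of freedom, and was tested with the two-sided quasi-likelihood F test. A replicate was a sample with its own label. No molecular identifiers are described, so several reads may copy 1 molecule, and the libraries of ZT6 differed by 17.5 times the counting variance in HepKO and 50.8 times in HepWT, so the spread between libraries set the precision. The counting interval covers counting error only. The methods were tested on simulated data. Tried beside it were the DESeq2 1.42.0 test, DESeq2 size factors, limma 3.58.1 with voom, other filters and thresholds, replicate blocks, fewer libraries or times, and leaving out each library.

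The members, the 38 gene lists and the rules were chosen with earlier results of these data known. Named genes were the clock lists; the 10 largest called rises and falls at ZT6 without overlap of the groups, and the 10 largest distances in each direction among genes past both tests, each with at least 2 CPM at ZT6; up to 4 genes of smallest p per pathway list; 2 genes of highest level per cell type list; and Alb. Predicted genes are counted but not named. Other called list members, Coq10b and Stim2 were chosen after their values were seen. Results of some genes are not reported here.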

Additional observations from a re-analysis of the deposited data

Results flagged for a closer look

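In 23 genes of the lists or of the named distances, the genotype difference at ZT6 stood apart from the mean of the other 5 times by the test of that distance (adjusted p below 0.05, edgeR). The distance, as log2 at ZT6 minus log2 elsewhere, was positive in 11 of them: Cabyr 3.19, Tsku 2.74, Usp2 2.22, Lingo4 2.20, Cry1 2.12, Thrsp 1.84, Resf1 1.61, Per2 1.59, Lonrf3 1.56, Wee1 1.55 and Nampt 1.14. It was negative in 12: Ndrg1 -1.36, Loxl4 -1.36, Adora1 -1.21, Mrnip -1.19, Plin2 -1.18, Slc25a22 -1.17, Casp6 -1.13, Agxt -1.08, Dtx4 -0.99, Clpx -0.87, F11 -0.84 and Insig2 -0.81. Nampt, Thrsp and Agxt did not pass at ZT6 itself. Of the 22 named distances that passed, 1 predicted gene included, 5 were kept without each of the 24 libraries in turn and 4 without the 5 libraries of low depth. Groups of 2 libraries are too small to look for a single outlying library.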

How the results depend on the processing

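No named call changed direction under any alternative tried. The count of 857 genes at ZT6 stayed within 1.5 times with DESeq2, its size factors, limma-voom, the stricter filter, the replicate blocks and either HepWT replicate alone (628 to 1086). It was 1691 with no filter on low counts, 260 at adjusted p below 0.01, 137 without the 5 libraries of low depth, 479 with the 4 ZT6 libraries alone, and 200 to 954 without 1 library. It moved by over 1.5 times without any of the 4 ZT6 libraries, and was lowest without HepKO ZT6 replicate 2. The 57 distances were 153 with DESeq2, 583 with no filter, 12 at 0.01, 136 with HepWT replicate 1 alone, 5 without the libraries of low depth, 7 against ZT2 and ZT10, 193 by an F test of the whole interaction, and 7 to 84 without 1 library. The 41 genes past both thresholds were 92, 414, 7, 95, 4, 5 and 84 under the same 7 settings, and 4 to 58 without 1 library. The count of distances also moved without HepKO ZT2 replicate 2 (35) or HepKO ZT10 replicate 1 (36). Why the counts moved was not tested, except that a group left with 1 library was assumed to vary like the others.

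Same-numbered ZT6 libraries deviated together with a correlation of 0.0933 across genes, and those of other pairs of groups with -0.21 to 0.406, highest within HepWT. Not every pair exceeded 0.1, so the numbers were not taken to pair the samples. The replicate block gave 873 genes at ZT6, 804 of them shared with the 857, and 43 distances, all among the 57. A block in HepWT only gave 955 genes, 742 of them shared, and 85 distances. With a block within the 4 ZT6 libraries 925 genes were called. Of 92 named genes called at ZT6, 36 were kept without each library in turn, 29 under every other setting at the 0.05 threshold, and 35 without the libraries of low depth.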
